A study of Mus musculus with 2 samples.

Results

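Activated effector CD8 T cells were examined in scRNA-Seq of mouse livers bearing cholangiocarcinoma (CCA), with 1 library from shYT animals given PBS and 1 from shYT animals given an anti–PD-1 antibody. The members were selected on their own measured transcripts, counted as UMIs (unique molecular identifiers, each tagging 1 captured molecule). A member had from 500 up to 5000 genes, no more than 10% of its UMIs from mitochondrial genes, UMIs of at least 2 of *Cd3d*, *Cd3e*, *Cd3g*, *Trac* and *Trbc2*, and a UMI of *Cd8a* or *Cd8b1*. It also had no UMI of *Cd4*, *Foxp3*, *Trdc*, *Cd79a* or *C1qa*, and UMIs of at least 2 of 6 activation genes: *Pdcd1*, *Gzmb*, *Gzmk*, *Cxcr6*, *Lag3* and *Havcr2*. This gave 248 cells with PBS and 341 with anti–PD-1, 589 of 31891 kept cells in all.

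In both groups the tumors had been started by hydrodynamic tail vein injection of the oncogenes NICD and myr-AKT. All animals carried a doxycycline-inducible shRNA against YAP and TAZ under the CAG-rtTA3 driver, which is expressed in all tissues, so the T cells themselves carried it. Knockdown was induced on day 25, the antibody (clone RMP1-14) was injected on days 26, 29 and 32, and livers were collected on day 33. The study names several samples per group for this experiment, but hashtag labeling was omitted, so cells could not be assigned to animals and animals could not serve as replicates. Which of the shYT lines was used and the age of the mice are not given in the sources used here. With 1 library per group there was no replicate, so no test between treatments was possible. Every interval below is a 95% interval for counting error in these 2 libraries only.

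CD8 T cells recognize peptides on MHC class I through their T cell receptor. Once activated, they make granzymes and perforin, which kill the target cell, and cytokines and chemokines that reach other cells. Under lasting antigen they also display inhibitory receptors such as PD-1 (encoded by *Pdcd1*), the target of the antibody, and progressively lose the memory regulator TCF1 (*Tcf7*) and the interleukin-7 receptor (*Il7r*). CXCR6 holds such cells in tissue, including the liver.

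The members contributed 833178 UMIs with PBS and 1738327 with anti–PD-1, with medians of 2696.5 and 3848 UMIs and of 1380.5 and 1707 genes per cell. Levels are given as CPM, the UMIs of a gene scaled to 1000000 UMIs over the members of a library, and a count of 3 UMIs corresponded to 3.60 CPM with PBS and 1.73 CPM with anti–PD-1. Median mitochondrial shares were 3.23% and 3.93%, and 3 and 17 members were marked as doublets. No barcode was a member in both libraries, although the libraries shared 219 barcodes.

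Sex-linked transcripts differed between the libraries. Among members given PBS, 124 cells had a UMI of *Xist* without Y-linked UMIs and 11 had Y-linked UMIs without *Xist*. Among members given anti–PD-1, 199 had Y-linked UMIs and 0 had *Xist*, so sex and treatment cannot be told apart outside those 11 cells.

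RNA of other cells also moved with the treatment. The 6 neutrophil markers, all of which were past 1.5-fold higher, summed to 142 CPM in members given PBS and 2444 CPM with anti–PD-1. *S100a8* alone went from 75.6 to 1334 CPM, and 5% of the members given anti–PD-1 held 79.2% of its UMIs. All 6 measured tumor and biliary markers were past 1.5-fold lower, with sums of 1830 and 703 CPM, as were all 5 fibroblast markers, with sums of 178 and 39.7 CPM, and 4 of 5 endothelial markers, with sums of 110 and 36.8 CPM. The neutrophil and tumor markers stood the same way in the other CD8-gated T cells, with all 6 past 1.5-fold in each list. Macrophage markers summed to 2672 and 1963 CPM, B cell markers to 538 and 650 CPM, and gamma-delta T cell markers, of which *Trdc* was 0 by the gate and *Sox13* also had no UMI, to 110 and 280 CPM. The remaining lists of other cells (dendritic, NK, CD4 and regulatory T, NKT and MAIT, hepatocyte, pancreatic acinar, and erythroid cells and platelets) each summed to under 200 CPM in both libraries. The part of this RNA in the gene results was not tested, except where a value without the affected cells is given.

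The markers of the label (*Cd8a*, *Cd8b1*, *Pdcd1*, *Gzmb*, *Gzmk* and *Cxcr6*) were all read by the gate. Their presence was thus set by the selection and does not test the label. *Cd8a* was at 912 CPM with PBS and 893 CPM with anti–PD-1, and *Cd8b1* was at 931 and 896 CPM. Neither was past 1.5-fold. The T cell kinase gene *Lck* was at 661 and 669 CPM. *Trav11*, the alpha segment of NKT cells, and *Trav1*, that of MAIT cells, had no UMI in either library. Only 30 members given PBS and 43 given anti–PD-1 showed exactly 1 alpha segment, so this absence says little. The other 2 markers of that list, *Zbtb16* (log2 ratio of anti–PD-1 over PBS −1.47) and *Klrb1c* (0.59), were measured, and the list summed to 32.4 and 34.5 CPM.

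Cells that met every step of the rule but the activation genes are called CD8-gated T cells here. Members made up a larger share of them with anti–PD-1, a difference that depended on the gate and on depth. They were 248 of 704 such cells with PBS, or 35.2% (31.7% to 38.9%, exact Clopper-Pearson), and 341 of 750 with anti–PD-1, or 45.5% (41.9% to 49.1%). The difference of 10.2 percentage points had a Newcombe interval of 5.20 to 15.2. The gate read whole cells, and cells given anti–PD-1 were deeper. With each cell thinned to 2000 UMIs the difference was 6.80 points (1.87 to 11.6), and with each thinned to 1000 UMIs it was 2.15 points (−2.80 to 7.0), an interval that includes 0. With cells of 1 activation gene counted as members the difference was 2.63 points (−2.39 to 7.63), which also includes 0.

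Of all kept cells, members were 1.6% with PBS and 2.08% with anti–PD-1, a difference of 0.488 points (0.192 to 0.783). The 5 excluded genes had removed 39.3% of the 1160 cells that had passed the T cell and CD8 steps with PBS and 56.8% of 1737 with anti–PD-1, mostly through *C1qa*, a macrophage complement gene found in 33.4% and 46.9% of them. Without that exclusion the difference was 8.82 points (5.15 to 12.4) among CD8-gated T cells. When cells with a UMI of any of 7 further markers of other cells were also left out, only 66 and 40 members remained, the difference among CD8-gated T cells was 10.4 points (−1.74 to 22.5), and that among kept cells was −0.180 points (−0.313 to −0.0539), the opposite direction.

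The gate required at least 2 of the 6 activation genes, and more than 1 in 3 members stood at that limit. Exactly 2 were found in 100 members with PBS (40.3%) and 120 with anti–PD-1 (35.2%), 3 in 59 and 110, 4 in 53 and 58, 5 in 27 and 43, and all 6 in 9 and 10. Just outside the limit, 170 and 124 CD8-gated cells had 1 activation gene, and 286 and 285 had none.

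Levels differed between cells just inside and just outside the limit. *Gzma*, a granzyme the gate did not read, was at 136 CPM with PBS and 40.1 CPM with anti–PD-1 in cells with no activation gene, at 228 and 290 CPM in cells with 1, at 1557 and 742 CPM in cells with 2, and at 2356 and 809 CPM in cells with 3 or more. *Il7r* went the other way, from 772 and 627 CPM with 1 gene to 254 and 255 CPM with 2 and 58.1 and 42.4 CPM with 3 or more. *Tcf7* followed *Il7r*, from 310 and 327 CPM to 167 and 148 CPM and then to 50.6 and 43.2 CPM. For *Tcf7* the libraries lay close together in every class, while for *Gzma* they lay apart in cells with no activation gene and again inside the gate.

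**Figure D1:**
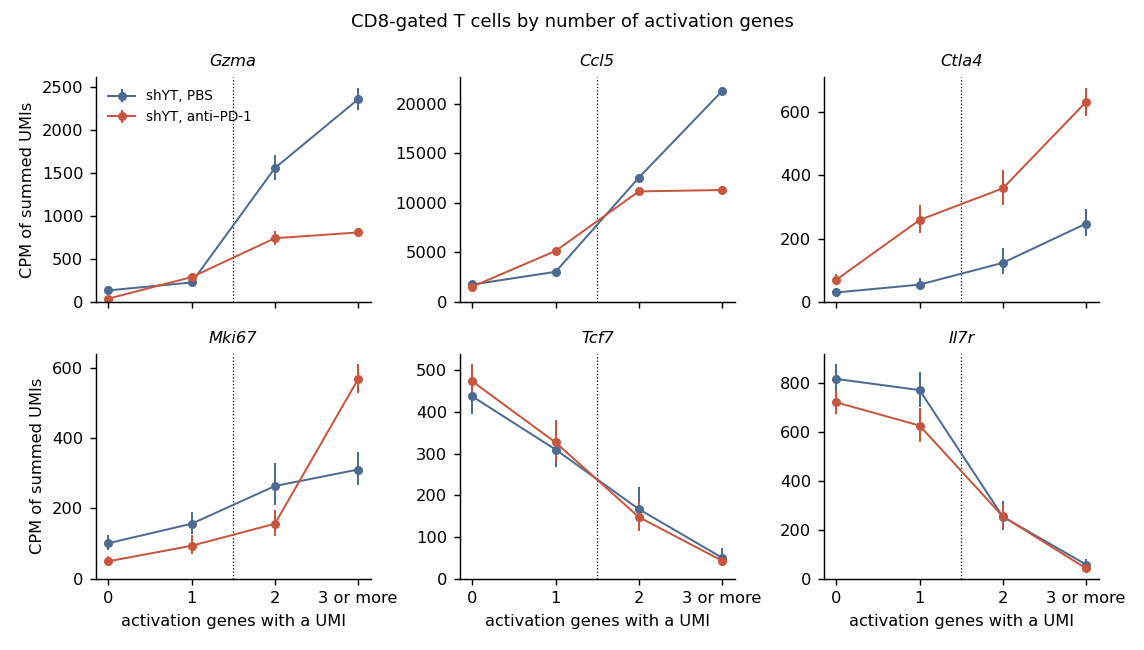
CPM of 6 genes (vertical axes, linear, from 0) in CD8-gated T cells with 0, 1, 2, or 3 or more activation genes (horizontal axis), with PBS in blue and anti–PD-1 in red and exact Poisson 95% intervals as bars; the dotted line marks the gate. *Gzma* was at 2356 CPM with PBS and 809 CPM with anti–PD-1 in cells with 3 or more genes, while *Il7r* and *Tcf7* lay lower there in both libraries.

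Beyond the genes of the gate, the genes most enriched in members relative to the other CD8-gated T cells (456 with PBS and 409 with anti–PD-1) included *Gzma*, the chemokine genes *Ccl1*, *Ccl3*, *Ccl4* and *Ccl5*, and the cell cycle genes *Ube2c* and *Ccna2*. This is a description, as the gate split the same cells, and 6.81% of 9563 genes were past 1.5-fold higher and 3.38% past 1.5-fold lower in members in both libraries. *Ccl1*, which encodes a ligand of CCR8, stood at log2 ratios of 5.16 with PBS and 3.66 with anti–PD-1, *Gzma* at 3.55 and 2.69, and *Rgs16*, a brake on chemokine receptor signaling, at 2.63 and 2.98. At the other end were *Il7r* at −2.59 and −2.74 and *Tcf7* at −2.01 and −2.50, together with *Satb1*, *Lef1*, *Slamf6* and *Klf3*, genes of naive and memory T cells.

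Treatments were then compared within the members. For each library, UMIs were summed over members and expressed as CPM, and the ratio of anti–PD-1 over PBS was taken as log2 of CPM plus 5, which understates differences of low genes. A gene was counted as different when it was past 1.5-fold. Of 9069 genes at 10 CPM or more in either library, 783 (8.63%) were past 1.5-fold higher and 1580 (17.4%) past 1.5-fold lower with anti–PD-1, and the median log2 ratio was −0.12. Under median-ratio scaling, which shifts all ratios by 0.19, the counts were 1230 higher and 1059 lower. These shares are the background for every count of genes below. In the other CD8-gated T cells 7.11% of 8845 genes were past 1.5-fold higher and 14.9% lower, and the median there was −0.15. As both classes come from the same libraries, their ratios are given side by side and are not independent.

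Of the 6 genes that chose the cells, *Gzmk* and *Havcr2* were past 1.5-fold lower with anti–PD-1 and none was past 1.5-fold higher. *Pdcd1* was at 245 CPM with PBS and 328 CPM with anti–PD-1 (log2 ratio 0.42, 0.19 to 0.64), and *Lag3*, another inhibitory receptor, was at 150 and 188 CPM (0.31, 0.02 to 0.60). *Gzmb*, on chromosome 14 (GRCm38, chr14:56258838-56262260), was nearly level at 889 and 924 CPM (0.05, −0.07 to 0.18). *Gzmk*, a granzyme of less differentiated effector cells, was at 595 and 328 CPM (−0.85, −1.02 to −0.68), *Havcr2*, the gene of TIM-3, at 102 and 54.7 CPM (−0.84, −1.24 to −0.45), and *Cxcr6* at 606 and 491 CPM (−0.30, −0.46 to −0.14). When each gene was taken out of the gate and 2 of the other 5 were required, its ratio moved little, to 0.44 for *Pdcd1*, 0.31 for *Lag3*, 0.08 for *Gzmb*, −0.86 for *Gzmk*, −0.79 for *Havcr2* and −0.24 for *Cxcr6*.

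The members were also divided by their *Gzmb* and *Gzmk* UMIs, which is a description, since the gate used both genes and the cells were not thinned here (median depths of 2696.5 and 3848 UMIs). Members with both *Gzmb* and *Gzmk* UMIs were 110 of 248 (44.4%) with PBS and 117 of 341 (34.3%) with anti–PD-1. Those with *Gzmb* alone were 55 (22.2%) and 103 (30.2%), those with *Gzmk* alone 65 (26.2%) and 67 (19.6%), and those with neither 18 (7.26%) and 54 (15.8%). *Gzma* was highest in cells with both granzymes, at 3346 CPM with PBS and 1279 CPM with anti–PD-1, and lower in cells with *Gzmk* alone, at 754 and 194 CPM. The lower *Gzma* level with anti–PD-1 was thus present within each of these classes, since it was also at 1420 and 875 CPM with *Gzmb* alone and at 195 and 69.6 CPM with neither. The last pair of values is imprecise, as it rests on 18 and 54 cells with 66615 and 287391 UMIs of all genes.

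Among cytotoxic genes, *Gzma* was lower, the core killing genes were close to level and a few granule genes were higher. Of 15 measured genes 3 were past 1.5-fold higher and 2 lower, with a median log2 ratio of −0.16 that changed sign under another scaling (0.03) and with cells of 1 activation gene added (0.18). *Gzma* (chr13:113093825-113100981, next to *Gzmk* at chr13:113171608-113225908) was at 2069 CPM (1724 UMIs) with PBS and 791 CPM (1375 UMIs) with anti–PD-1, a log2 ratio of −1.38 (−1.48 to −1.28). Its UMIs were concentrated, as 5% of the members held 44.0% of them with PBS and 62.1% with anti–PD-1. Without the 2 highest members in each library the log2 ratio of *Gzma* was −1.42. Of the other killing genes, *Prf1*, the pore-forming perforin, was at 194 and 177 CPM, *Nkg7*, a granule protein, at 3505 and 3139 CPM, and *Fasl*, the death ligand, at 181 and 155 CPM. Higher were *Srgn*, the proteoglycan that packs granules, at 802 and 1516 CPM (0.92), *Serpinb9*, which protects the killer cell from granzyme B, at 81.6 and 202 CPM (1.26), and *Gzmc*, with 1 UMI in members given PBS and 43 UMIs with anti–PD-1.

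**Figure D2:**
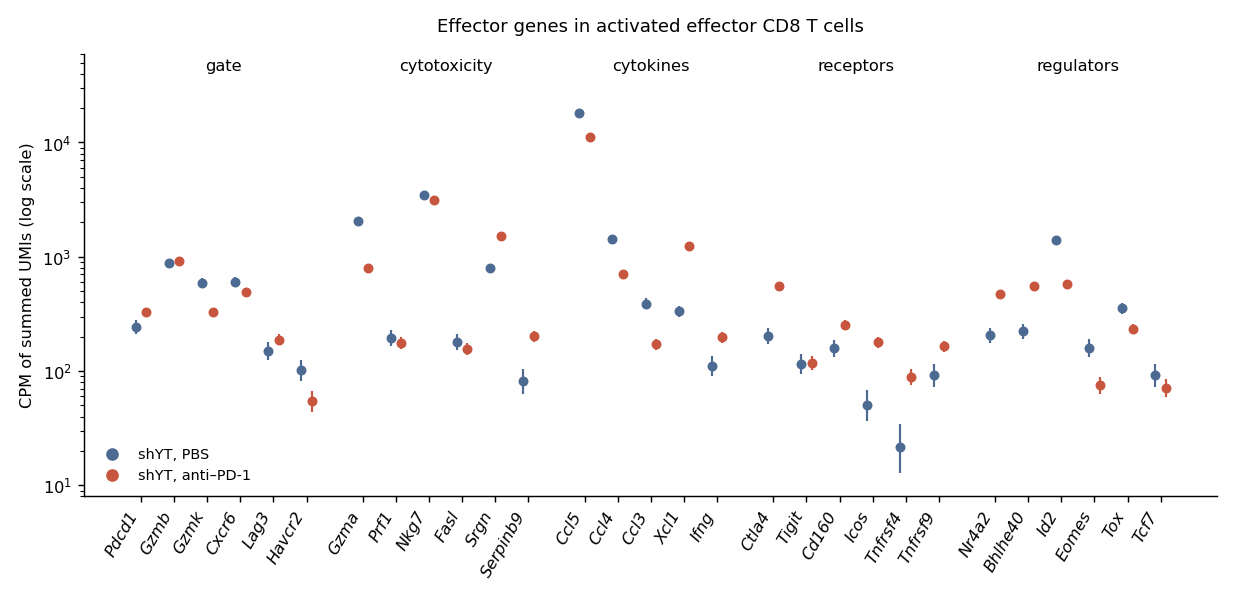
CPM of summed UMIs (vertical axis, log scale) for 29 genes of the gate, cytotoxicity, cytokines, receptors and transcriptional regulators in activated effector CD8 T cells, with PBS in blue, anti–PD-1 in red and exact Poisson 95% intervals as bars. *Gzma*, *Ccl4*, *Ccl3*, *Id2* and *Eomes* lay lower with anti–PD-1, and *Xcl1*, *Ctla4*, *Icos*, *Tnfrsf4*, *Nr4a2* and *Bhlhe40* higher.

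*Ccl3*, *Ccl4* and *Ccl5*, chemokines that draw T cells and monocytes, were lower with anti–PD-1, and *Xcl1* was higher. Of 14 measured cytokines and chemokines 4 were past 1.5-fold higher and 6 lower. *Ccl5*, the most abundant of them, was at 18147 and 11263 CPM (−0.69). Without the members that had a UMI of the leading V segments described further on, its ratio was −0.41, under 1.5-fold. The libraries also lay closer together for *Ccl5* among members that were not cycling, as given further on. By activation genes, *Ccl5* was at 21283 and 11299 CPM in members with 3 or more, but at 12555 and 11163 CPM with exactly 2. In CD8-gated T cells with 1 it was higher with anti–PD-1, at 3054 and 5157 CPM. *Ccl4* was at 1435 and 712 CPM (−1.01, −1.12 to −0.89) and *Ccl3* at 389 and 172 CPM (−1.15, −1.38 to −0.93), whereas in the other CD8-gated T cells *Ccl4* was at 65.3 and 214 CPM and *Ccl3* at 30.4 and 57.5 CPM. Without the 5 excluded genes in the gate the ratio of *Ccl3* was 0.21 and that of *Ccl4* 0.02, so the lower levels of these chemokines depend on leaving out cells with UMIs of other cell types.

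*Xcl1* (chr1:164931644-164935527) encodes the chemokine that draws cross-presenting dendritic cells through XCR1. It was at 332 CPM with PBS and 1242 CPM with anti–PD-1 (1.89, 1.71 to 2.06), but a few cells carried much of it. In members given anti–PD-1, 2 cells held 757 and 334 of its 2159 UMIs, or 50.5%, and 2 members given PBS held 48.7% of 277. Without these 2 cells in each library it was at 174 and 626 CPM (1.82). *Ifng*, the cytokine that raises antigen presentation, was at 112 and 197 CPM (0.79, 0.48 to 1.11), and *Csf1*, a macrophage growth factor, at 28.8 and 5.18 CPM (−1.73).

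Inhibitory receptors did not move together. Of 14 genes 4 were past 1.5-fold higher and 5 lower. *Ctla4* was at 203 and 557 CPM (1.44, 1.21 to 1.67), and it was also higher in the other CD8-gated T cells (1.57), in activated CD4 T cells (2.28) and over all kept cells (2.11). *Cd160* was at 158 and 255 CPM (0.67). *Tigit* was level at 115 and 118 CPM. Lower with anti–PD-1 were *Cd200r1*, the receptor of CD200, at 96.0 and 23 CPM (−1.85), *Cd101* at 49.2 and 12.7 CPM (−1.62), *Cd244a*, the receptor 2B4, at 81.6 and 36.2 CPM (−1.07), and *Entpd1*, the ectonucleotidase CD39, at 121 and 67.9 CPM (−0.79).

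All 11 costimulatory genes counted had ratios above 0. Of them 5 were past 1.5-fold higher and none lower, with a median of 0.58, while 3 were higher in the other CD8-gated T cells, at a median of 0.46. *Tnfrsf4*, the gene of OX40, was at 21.6 and 88.6 CPM (1.81, 1.23 to 2.40), and *Icos* at 50.4 and 179 CPM (1.73, 1.3 to 2.16). *Cd28*, through which PD-1 is known to act, was at 140 and 285 CPM (1.00), and *Tnfrsf9*, the gene of 4-1BB, at 92.4 and 165 CPM (0.80). *Cd226*, the activating partner of TIGIT, was at 220 and 330 CPM (0.58) in members and at 195 and 136 CPM (−0.50) in the other CD8-gated T cells.

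Of 19 transcription factors of effector and exhausted cells 6 were past 1.5-fold higher, 4 lower and 9 neither. The higher ones were genes that T cell receptor signals turn on: *Nr4a1* at 80.4 and 475 CPM (2.49), *Nr4a2* at 205 and 476 CPM (1.19), *Nr4a3* at 22.8 and 156 CPM (2.53), *Irf4* at 15.6 and 52.3 CPM (1.48) and *Bhlhe40* at 223 and 550 CPM (1.28), with *Tox2* at 26.4 and 51.8 CPM (0.85). The 3 *Nr4a* genes were also higher in the other CD8-gated T cells (2.43, 3.08 and 3.35), in activated CD4 T cells (1.92, 2.00 and 2.05) and in NK cells (3.35, 2.42 and 2.95). Over all kept cells *Nr4a1* was at 116 and 731 CPM, above its level in members. The lower ones were *Id2*, which sustains effector cells, at 1403 and 581 CPM (−1.26, −1.39 to −1.14), *Eomes* at 160 and 75.4 CPM (−1.03), *Maf* at 194 and 97.2 CPM (−0.96) and *Tox*, the regulator of the exhausted state, at 354 and 234 CPM (−0.59). *Tbx21*, the gene of T-bet, was at 82.8 and 120 CPM (0.51).

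Memory and progenitor genes were low in members of both libraries. Of 14 genes 4 were past 1.5-fold higher and 1 lower, with a median of 0.38 that turned to −0.25 when cells with UMIs of 7 further markers of other cells were left out. *Tcf7* was at 92.4 and 71.3 CPM (−0.35, −0.74 to 0.04) and *Il7r* at 128 and 99.5 CPM (−0.35), while *Bcl2*, which protects from apoptosis and is induced by interleukin-7, was at 343 and 176 CPM (−0.94). *Ccr7*, a homing receptor for lymph nodes, was past 1.5-fold higher at 7.20 and 60.4 CPM (2.42). At equal depth, however, *Ccr7* was found in 0 of 202 members with PBS, which allows a share of cells with a UMI of up to 1.49% (3 cells of 202), and in 7.87% of 305 members with anti–PD-1, both below its shares of 4.64% and 10.1% in neutrophils, so the shares are not read as a difference in expression.

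Among NK receptors, 6 of 12 genes were past 1.5-fold higher and 2 lower, with a median of 0.56. The other CD8-gated T cells had 2 higher and 3 lower. The median was 0.87 in activated CD4 T cells and −0.07 in NK cells. *Klrc1*, the gene of the inhibitory receptor NKG2A, was at 49.2 and 174 CPM (1.72, 1.29 to 2.15), and its activating paralog *Klrc2* at 13.2 and 66.2 CPM (1.97). *Klrk1*, the gene of NKG2D, was at 116 and 190 CPM (0.69) in members and at 109 and 67.9 CPM (−0.65) in the other CD8-gated T cells. *Klrg1*, a marker of terminal effector cells, was at 37.2 and 12.1 CPM (−1.31). *Klrc1* and *Klrc2* are close paralogs, and how reads shared between them were counted is not given in the sources used here.

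Cytokine receptors went both ways. Of 20 genes 7 were past 1.5-fold higher and 5 lower. *Il18r1* was at 76.8 and 132 CPM (0.74) and its partner *Il18rap* at 45.6 and 88.0 CPM (0.88), while with cells of 1 activation gene added *Il18r1* was at −0.02. In the other CD8-gated T cells the pair had log2 ratios of −0.999 and −0.55. *Il12rb2* was at 12 and 38.5 CPM (1.36) and *Il2ra*, the high-affinity interleukin-2 receptor chain, at 22.8 and 46.0 CPM (0.88). *Il10ra* was at 146 and 66.2 CPM (−1.09), *Ifngr2*, the less abundant chain of the interferon-gamma receptor, at 21.6 and 8.05 CPM (−1.03) while *Ifngr1*, the other chain, was higher at 310 and 530 CPM (0.77), and *Il2rb* at 1000 and 711 CPM (−0.49).

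Most cell cycle genes were higher in members and none was past 1.5-fold higher in the other CD8-gated T cells. Of 16 genes 13 were past 1.5-fold higher and none lower in members, with a median log2 ratio of 1.1, while in the other CD8-gated T cells none was higher, 7 were lower and the median was −0.51. The median was −0.24 in activated CD4 T cells and 0.60 in NK cells. *Mki67*, the proliferation marker, was at 294 and 458 CPM (0.63, 0.43 to 0.83), *Stmn1*, a microtubule regulator, at 144 and 403 CPM (1.45), *Ccnb2*, a mitotic cyclin, at 63.6 and 204 CPM (1.61, 1.22 to 2.00), *Top2a*, the replication topoisomerase, at 172 and 329 CPM (0.92), and *Hmgb2* at 786 and 1667 CPM (1.08). The higher *Mki67* level was seen only in members with 3 or more activation genes, at 311 and 568 CPM. In members with exactly 2 it was lower with anti–PD-1, at 264 and 157 CPM. It was also lower in cells with 1, at 157 and 94.0 CPM, and with none, at 101 and 49.8 CPM. Members with 3 or more had median depths of 2805.5 and 4528 UMIs.

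The promoters of these genes are shown because a short element, the cell cycle gene homology region (TTTGAA), is known to sit near the start of many mitotic genes. In RefSeq promoter windows of 300 bases (250 before to 50 after each start, GRCm38.p6), it stood on either strand in 6 of 14 matched cell cycle genes (42.9%), namely *Mki67*, *Top2a*, *Ccnb2*, *Cdk1*, *Hmgb2* and *Cenpa*, and in 20.2% of all 27025 genes. The motif as it lies near 3 of these starts is given below on the gene's own strand, 5′ to 3′, with 1 match of the element or its complement in capitals (*Mki67* holds another in lower case).
Mki67 (chr7:135716452-135716497, reverse strand): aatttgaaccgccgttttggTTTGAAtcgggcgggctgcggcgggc
Cdk1 (chr10:69352902-69352947, reverse strand): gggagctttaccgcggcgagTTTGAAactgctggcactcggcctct
Top2a (chr11:99024187-99024232, reverse strand): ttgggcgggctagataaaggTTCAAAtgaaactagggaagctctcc
A match of these letters is a description of the sequence and says nothing of binding in these cells.

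Members given anti–PD-1 held more cycling cells. A cell was called cycling when it had UMIs of at least 2 of *Mki67*, *Top2a*, *Birc5*, *Ccnb2*, *Ccna2*, *Cdk1*, *Rrm2* and *Cenpa*. With each cell thinned to 2000 UMIs, which left out 46 and 36 shallower members, 5.94% (3.11% to 10.1%) of 202 members were cycling with PBS and 23.9% (19.3% to 29.1%) of 305 with anti–PD-1. Without thinning the shares were 9.27% and 31.1% in members and 5.48% and 9.05% in the other CD8-gated T cells, whose thinned shares had the opposite order. In the same libraries the thinned shares were 4.23% and 3.32% of the other CD8-gated T cells and 3.21% and 4.79% of neutrophils. They were 5.22% and 4.70% of B cells, and 0.909% of 110 NK cells with PBS and 6.35% of 126 with anti–PD-1. The PBS share in members was thus close to the background and the anti–PD-1 share well above it. With cycling members, which carry these genes by definition, left out, the median of the list was 0.02.

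Cycling members given anti–PD-1 were also poorer in *Ccl5* than noncycling ones, at 5360 against 16843 CPM, and the same order was seen with PBS, at 11462 against 19739 CPM. For *Gzma* the order differed between the libraries: it was at 3040 CPM in the 23 cycling and 1838 CPM in the 225 noncycling members given PBS, and at 546 CPM in the 106 cycling and 1023 CPM in the 235 noncycling members given anti–PD-1. Cycling cells were deep, with medians of 7081 and 7197 UMIs. Cycling members held 160189 of 833178 UMIs with PBS and 844785 of 1738327 with anti–PD-1, so they weighed more in the anti–PD-1 sums. Among noncycling members, *Ccl5* at 19739 and 16843 CPM lay closer together than over all members, at 18147 and 11263 CPM. *Gzma* was lower with anti–PD-1 in both classes. How far the share of cycling members accounts for the lower *Ccl5* and *Gzma* sums was not tested.

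At equal depth, several other genes differed in the share of members that held them. *Gzmk* was found in 64.4% (57.3% to 71.0%) of members with PBS and 39.3% (33.8% to 45.1%) with anti–PD-1, and in 2.86% and 2.89% of neutrophils. *Gzma* was found in 48.0% and 27.5%, *Havcr2* in 20.8% and 7.87% and *Eomes* in 25.7% and 11.5%. For *Gzma* and *Eomes*, which the gate did not read, the intervals for counting error did not overlap, which says nothing of variation between animals. *Gzmk* and *Havcr2* helped to choose the cells and are given as a description. *Ctla4* was found in 27.7% (21.7% to 34.4%) and 53.1% (47.3% to 58.8%), *Nr4a2* in 26.2% and 51.5%, *Xcl1* in 15.3% and 31.5% and *Cd160* in 22.8% and 35.1%. In neutrophils the same 7 genes after *Gzmk* were found in 0.714% to 12.4% of cells, in each library below the share in members. The unthinned shares were 70.6% and 54.0% for *Gzmk*, 50.8% and 36.7% for *Gzma*, 24.6% and 17.9% for *Havcr2* and 33.9% and 18.8% for *Eomes*. They were 35.9% and 66.3% for *Ctla4*, 33.1% and 67.7% for *Nr4a2*, 19.4% and 37.2% for *Xcl1* and 29.8% and 53.4% for *Cd160*, so the direction was the same at either depth. *Nr4a1*, found in 14.4% and 47.9% of members, was found in 25.4% and 66.7% of neutrophils and in 10.1% and 67.6% of B cells, so its share in members did not stand above that in neutrophils. Nor did that of *Entpd1*, found in 19.8% and 9.84% of members and in 34.3% and 40.0% of neutrophils. Before thinning, neutrophils had medians of 1583.5 and 2128.5 UMIs and B cells 1816.5 and 2527.5.

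**Figure D3:**
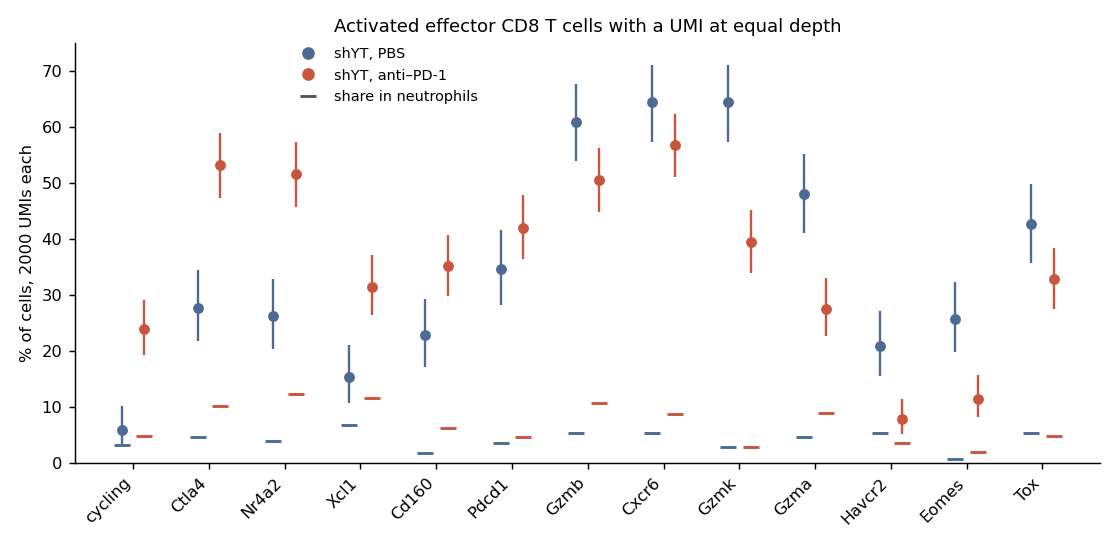
Percent of activated effector CD8 T cells that were cycling or had a UMI of each gene after thinning every cell to 2000 UMIs (vertical axis), with PBS in blue (202 cells), anti–PD-1 in red (305 cells), exact Clopper-Pearson 95% intervals as lines, and the share in neutrophils of the same library as short bars. Cycling, *Ctla4*, *Nr4a2* and *Xcl1* shares were higher with anti–PD-1, and *Gzmk*, *Gzma*, *Havcr2* and *Eomes* shares lower.

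Type I interferon genes were mostly higher in members, and their medians were also above 0 in the 3 other classes of T and NK cells. Of 14 measured type I interferon genes 11 were past 1.5-fold higher and none lower, with a median of 0.82, while the medians were 0.60 in the other CD8-gated T cells, 0.83 in activated CD4 T cells and 1.34 in NK cells. *Isg15*, a ubiquitin-like modifier, was at 67.2 and 136 CPM (0.96, 0.57 to 1.36), *Bst2*, the antiviral tetherin, at 107 and 175 CPM (0.69), *Rtp4* at 30.01 and 70.2 CPM (1.1) and *Ifit1* at 9.60 and 33.4 CPM (1.39). In the 11 and 199 members with Y-linked but no *Xist* UMIs the median was −0.09, a value that rests on 11 cells with PBS.

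The interferon-gamma response was narrower. Of 18 genes 4 were past 1.5-fold higher, among them *Gbp2* at 54.0 and 98.9 CPM (0.82), *Irgm1* at 45.6 and 79.4 CPM (0.74) and *Cxcl10*, a CXCR3 ligand, at 9.60 and 98.9 CPM (2.83). None was lower, and the median was 0.16, against 0.37 and 8 of 18 higher in the other CD8-gated T cells. *Cxcl10* is mostly made by other cells, and 5% of the members given anti–PD-1 held 75% of its UMIs. The MHC class I genes were level, with none of 8 past 1.5-fold and *B2m* at 5974 and 5660 CPM.

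The interferon-stimulated response element, searched as GAAA, 2 bases of any kind and GAAA on either strand, is the known docking sequence of the factors behind both lists. It was found in the promoter windows of 6 of 11 matched type I genes (54.5%), in 9 of 13 matched interferon-gamma genes (69.2%), in 0 of 14 matched cell cycle genes and in 3.99% of all genes. The windows of 3 type I genes follow, with 1 match of the element or its complement in capitals.
Isg15 (chr4:156200861-156200910, reverse strand): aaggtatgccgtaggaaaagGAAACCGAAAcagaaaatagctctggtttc
Ifit1 (chr19:34640784-34640833, forward strand): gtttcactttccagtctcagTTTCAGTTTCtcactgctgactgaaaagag
Rsad2 (chr12:26456543-26456592, reverse strand): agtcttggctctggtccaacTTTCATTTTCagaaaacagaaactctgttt
In *Isg15* the element overlaps further copies of itself on the same strand, and the *Ifit1* stretch holds another match in lower case. *Rsad2*, the gene of viperin, was at 9.60 and 32.8 CPM (1.37).

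Genes that respond to receptor signals and stress were then read. Of 17 immediate early genes 8 were past 1.5-fold higher and 2 lower in members, with a median of 0.55 that was 0.21 with the gate on cells thinned to 2000 UMIs and 0.17 at 1000 UMIs, against 12 higher, none lower and a median of 1.015 in the other CD8-gated T cells. *Junb* was at 1102 and 2180 CPM (0.98), *Fosl2* at 30.01 and 129 CPM (1.94) and *Btg2*, an antiproliferative gene, at 283 and 518 CPM (0.86), while *Jun* was at 203 and 205 CPM and *Ier3* at 127 and 51.2 CPM (−1.23). Of 18 feedback regulators 11 were past 1.5-fold higher and 2 lower, with a median of 1.12 in members and 0.93 in the other CD8-gated T cells.

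Among the feedback regulators, *Tnfaip3*, the NF-κB inhibitor A20, was at 259 and 717 CPM (1.45), *Nfkbia* at 343 and 977 CPM (1.50), *Dusp5*, a phosphatase of ERK, at 86.4 and 363 CPM (2.01) and *Crem* at 37.2 and 164 CPM (2.00). *Dusp2* at 580 and 352 CPM (−0.71) and *Cish*, a brake on T cell receptor and cytokine signaling, at 163 and 102 CPM (−0.66) were lower. Heat shock genes, which respond to tissue digestion, were past 1.5-fold higher in 2 of 11 cases in members, with a median of 0.03, and in 5 of 11 in the other CD8-gated T cells, where the median was 0.56. The cyclic AMP response element (TGACGTCA) stood in 2 of 15 matched feedback regulators, *Dusp1* and *Nfkbid*, and in 1 of 14 matched immediate early genes, *Btg2*. It also stood in 1 of 14 matched cell cycle genes, *Mcm5*, and in 2.03% of all genes.

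**Figure D4:**
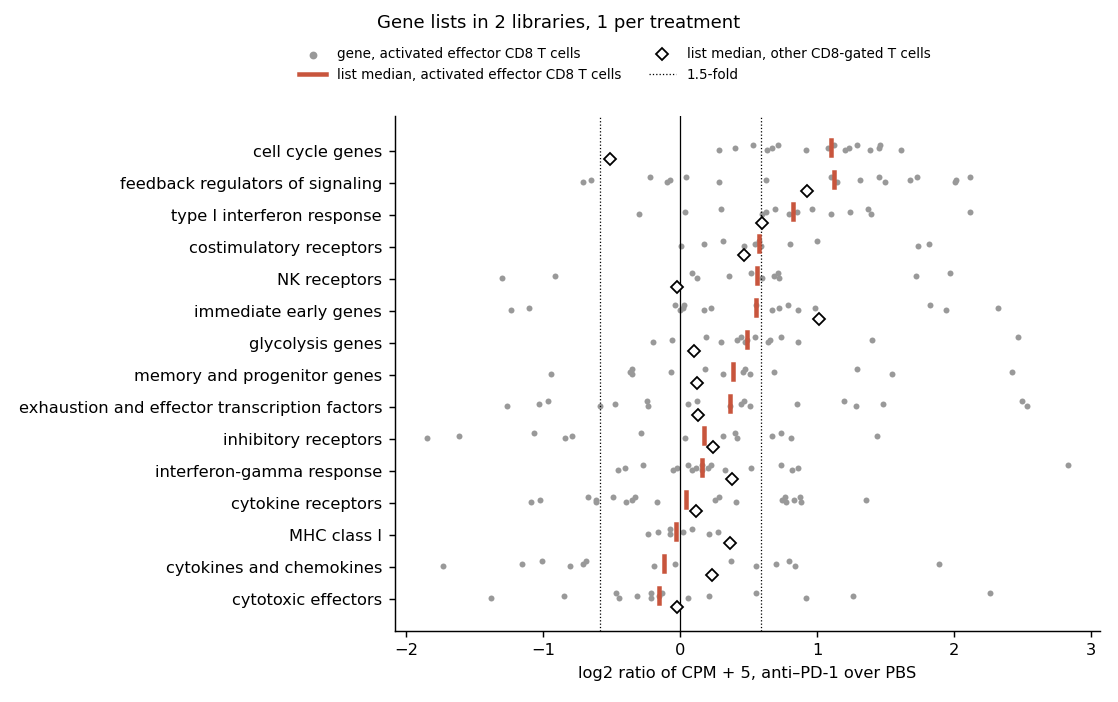
Log2 ratio of anti–PD-1 over PBS (horizontal axis, CPM plus 5) for each measured gene of 15 lists in activated effector CD8 T cells (gray points), with list medians in members (red bars) and in the other CD8-gated T cells (open diamonds); dotted lines mark 1.5-fold. The median of the cell cycle list was 1.1 in members and −0.51 in the other CD8-gated T cells, and the cytotoxic list had a median of −0.16 in members.

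Of 15 glycolysis genes 6 were past 1.5-fold higher and none lower, with a median of 0.48, and the median was 0.10 in the other CD8-gated T cells, 0.055 in activated CD4 T cells and 0.43 in NK cells. *Ldha*, lactate dehydrogenase, was at 425 and 710 CPM (0.73), *Aldoa* at 412 and 651 CPM (0.65) and *Hif1a*, the hypoxia factor that induces the pathway, at 61.2 and 169 CPM (1.40). *Slc16a3*, a lactate exporter, was at 3.60 and 42.6 CPM, with only 3 UMIs in PBS. Of 13 apoptosis regulators 4 were past 1.5-fold higher, among them *Bcl2a1d*, a survival gene with near-identical paralogs, at 96.0 and 223 CPM (1.17), and 1, *Bcl2*, was lower.

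Genes of tissue residency and of circulating effector cells did not shift as groups. Of 11 residency genes 2 were past 1.5-fold higher and 1 lower, and *Rgs1*, which limits exit from tissue, was at 1047 and 680 CPM (−0.62), *Cd69* at 158 and 223 CPM (0.48) and *Itgae* at 36.0 and 29.9 CPM. Of 9 circulating effector genes 3 were higher and 1 lower, with *Ly6c2* at 202 and 498 CPM (1.28) and *Itgb7* at 172 and 290 CPM (0.74). *Ly6c2* turned to −0.26 when cells with only 1 activation gene were added to the members. Of 7 chemokine receptors 2 were higher and 1 lower. *Cxcr4*, the CXCL12 receptor, was at 69.6 and 205 CPM (1.49), *Ccr2* at 56.4 and 30.5 CPM (−0.79) and *Cxcr3*, the receptor of CXCL9 and CXCL10, at 196 and 159 CPM (−0.29).

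Beyond the lists, the 12 genes with the highest and the 12 with the lowest ratios were taken among 3473 genes at 50 CPM or more in either library, leaving out the genes of the gate, V segments and genes at over 2 times the members' level over all kept cells. After *Nr4a3*, the highest were *Hist1h2ap*, a histone gene with near-identical copies, at 68.4 and 412 CPM (2.51), of whose 57 UMIs with PBS 2 cells held 40, *Nr4a1*, *Rgcc*, a cell cycle regulator, at 13.2 and 79.4 CPM (2.21), *Vps37b*, an ESCRT component, at 146 and 625 CPM (2.06) and *Kif22*, a mitotic kinesin. *Dusp5*, *Crem*, the replication factor gene *Pclaf* (93.6 and 389 CPM, 2.00), the NF-κB gene *Rel*, the histone gene *H2ac8* and *Klrc2* followed. Some of these were also past 1.5-fold higher outside the members: *Vps37b* was at 3.10 in the other CD8-gated T cells, 3.16 in activated CD4 T cells and 3.05 in NK cells, *Dusp5* at 2.54, 2.76 and 2.00, and *Crem* at 2.28, 2.34 and 2.62. The lowest was *Cmss1* at 2148 and 526 CPM (−2.02, −2.13 to −1.90), a gene that was also at −1.72 in the other CD8-gated T cells and −1.90 in NK cells, followed by *Coch* at 56.4 and 11.5 CPM (−1.90), *Cd200r1*, *Perp* at 79.2 and 21.3 CPM (−1.68), *Camk2n1*, a kinase inhibitor, at 164 and 50.05 CPM (−1.62), *AC149090.1*, *Rassf2*, *Adgrg1*, *Fbxo9*, *Sept4*, *L3mbtl3* and *Rcn1*. *Adgrg1*, the receptor GPR56 of cytotoxic lymphocytes, was at 104 and 33.9 CPM (−1.49), and at −1.43 in the other CD8-gated T cells. *Perp* was at −2.00 in the other CD8-gated T cells, −0.75 in activated CD4 T cells and −3.36 in NK cells. Over all kept cells it was at 140 and 17.9 CPM, above its level in members with PBS. Others were under 1.5-fold in the other CD8-gated T cells, such as *Coch* at −0.47 and *Sept4* at 0.28.

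The T cell receptor genes differed between the libraries in both constant and V segments. Of 14 receptor and signaling genes 1 was past 1.5-fold higher, *Cd5*, a negative regulator of the receptor, at 140 and 238 CPM (0.74), and 1 lower, *Trbc1* (chr6:41538218-41539881), the first of the near-identical beta constant genes, at 2639 and 1133 CPM (−1.22, −1.3 to −1.13). *Trbc2* (chr6:41546730-41548352), which unlike *Trbc1* was read by the gate, was at 1501 and 2232 CPM (0.57). How reads shared by these near-identical genes were assigned is not given in the sources used here, so the split between them is uncertain. In the other CD8-gated T cells *Trbc1* was level, at 648 and 637 CPM. A T cell uses 1 beta constant gene in its receptor, and a clone passes its V segments on to all of its cells, so V segments were read cell by cell.

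Beta segment use was narrower in members than in the other CD8-gated T cells, and different segments led in the 2 libraries. Exactly 1 beta segment was seen in 52 members given PBS, of which 26 (50%, 35.8% to 64.2%) had *Trbv13-3*, and in 87 members given anti–PD-1, of which 28 (32.2%, 22.6% to 43.1%) had *Trbv3*. The effective number of beta segments, the inverse of the summed squared shares, was 3.49 with PBS and 6.78 with anti–PD-1, against 12.1 and 11.1 in the other CD8-gated T cells, where the leading segment was *Trbv12-2* with 7 of 55 and 12 of 64 cells. Among alpha segments, *Trav16n* was seen in 19 of 30 members given PBS (63.3%, 43.9% to 80.1%), with an effective number of 2.38. It was 16.4 in the 43 members given anti–PD-1, where the leading alpha segment had 6 cells, and 22.3 and 23.3 in the other CD8-gated T cells. *Trav16n* has near-identical copies, so the copy is uncertain, and 195 and 251 members had no beta segment UMI at all.

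**Figure D5:**
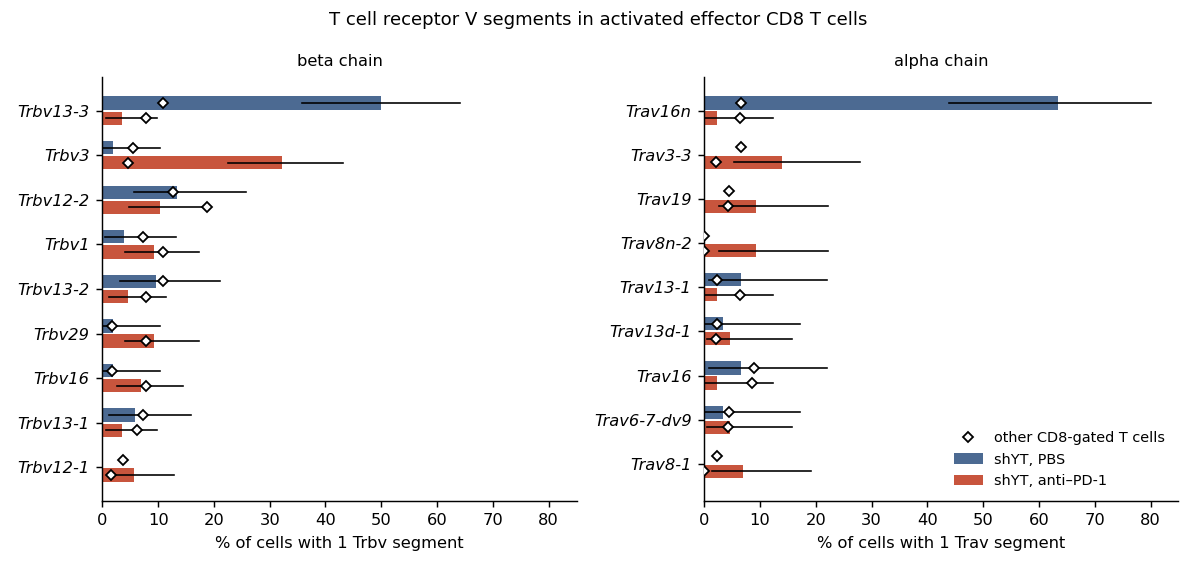
Percent of cells with exactly 1 beta (left) or alpha (right) V segment that used each of the 9 most frequent segments of the members, with PBS in blue, anti–PD-1 in red, exact Clopper-Pearson 95% intervals as black lines and the other CD8-gated T cells of the same library as open diamonds. *Trbv13-3* reached 50% and *Trav16n* 63.3% of members given PBS, and *Trbv3* reached 32.2% of members given anti–PD-1, each above its share in the other CD8-gated T cells.

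The cells with these segments had profiles of their own. The 41 members given PBS with a *Trbv13-3* or *Trav16n* UMI, 4 of which had both, all had a *Trbc1* UMI, as had 206 of all 248 members given PBS. Of the 41, 38 also had a *Trbc2* UMI, but *Trbc2* was among the T cell genes that the gate read. The 41 were at 29701 CPM of *Ccl5* against 16112 CPM in the remaining PBS members, at 1282 against 820 CPM of *Gzmb* and at 337 against 654 CPM of *Cxcr6*. Only 2 of the 41 (4.88%) were cycling, and *Mki67* was at 48.1 CPM against 337 CPM.

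The 28 members given anti–PD-1 with a *Trbv3* UMI were largely cycling. Of them 17 (60.7%, 40.6% to 78.5%) were cycling, compared with 31.1% of all members in that library, and *Mki67* was at 741 CPM against 419 CPM in the remaining members. They were at 57.4 CPM of *Gzma* against 891 CPM, at 4610 against 12172 CPM of *Ccl5*, at 14.3 against 111 CPM of *Il7r* and at 737 against 533 CPM of *Ctla4*. Deep cells are more likely to show a V segment UMI and to be called cycling, and how far depth accounts for this overlap was not tested. With all members that had a UMI of *Trbv13-3*, *Trav16n* or *Trbv3* left out, the log2 ratio of *Gzma* was −1.15 and that of *Trbc1* −1.09. The ratio of *Ccl5* was −0.41 and that of *Ctla4* 1.45. Members with none of these UMIs stayed in, and 195 and 251 members had no beta segment UMI at all, so cells that use these segments could remain. These ratios, and the values of the remaining members above, therefore cannot be read as those of cells without these segments. *Trbv13-3* was found in 3 members given anti–PD-1 and *Trbv3* in 1 member given PBS.

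The neutrophil RNA described above was concentrated in few cells. When the 1 and 20 members with 10 or more neutrophil marker UMIs were left out, the summed neutrophil markers were at 119 and 498 CPM, and *Cd14*, a monocyte gene at 7.20 and 120 CPM before, was at 7.24 and 63.2 CPM. The counts of genes past 1.5-fold were then 765 higher and 1582 lower, and the ratio of *Srgn* was 0.79.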

How the data were processed

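UMI counts per gene and cell were deposited by the authors as 1 matrix per library, made from Singleron GEXSCOPE reads with the vendor's pipeline on mm10 (GRCm38). Seurat 4.3 is named in the submitters' processing notes, and the deposited values are raw whole-number UMI counts with no normalization. The file lists 32589 genes, of which 32445 were found in GENCODE vM21, and 52 repeated symbols were kept out of the named genes.

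The cell filters were those of the study's methods. UMIs were summed over the members of each library, scaled to CPM and compared as log2 ratios of CPM plus 5, with delta-method intervals for counting error, and genes at 10 CPM or more in either sum were counted. Shares were taken after drawing 2000 UMIs from each cell without replacement. Doublets were scored against simulated pairs and left in (427 kept cells with PBS and 656 with anti–PD-1 were marked, at a threshold that 30.1% and 40.3% of simulated pairs passed). Depth sets the precision: intervals and floors cover counting error only, as each group was 1 library. The ratio script was tested on simulated data.

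The members and the 23 gene lists and 14 marker lists were chosen with earlier results of these data known. Genes were named where they were list members past 1.5-fold or among a list's most abundant, or among the 12 highest or 12 lowest in the rankings. Other genes named here were chosen after their values were seen. Other CD8-gated T cells passed the same gate with 0 or 1 activation gene. Activated CD4 T cells had a *Cd4* UMI in place of *Cd8a* or *Cd8b1*, and NK cells were gated on NK receptor genes without T cell receptor genes. Python 3.11.15, numpy 2.4.6, scipy 1.17.1, pandas 2.3.3, scikit-learn 1.9.0, scikit-image 0.26.0 and matplotlib 3.10.9 were used. Promoter sequences are RefSeq's on GRCm38.p6, matched by symbol. A few genes counted in the lists are not reported here by name.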

Additional observations from a re-analysis of the deposited data

Results flagged for a closer look

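Of the 186 genes in the 23 lists that reached 50 CPM in both classes of cells, 8 (4.3%) stood past 1.5-fold in opposite directions in activated effector CD8 T cells and in the other CD8-gated T cells. Over all 3208 genes at that level the count was 20 (0.623%), and the lists were chosen with earlier results known. The log2 ratio of anti–PD-1 over PBS is given for each, first in members and then in the other cells. The difference between the 2 classes was not tested, since each value rests on 1 library per group.

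Among chemokines, *Ccl3* was at −1.15 and 0.82, and *Ccl4* at −1.01 and 1.64. Among receptors, *Cd160* was at 0.67 and −0.68, *Klrk1* at 0.69 and −0.65, and *Il18r1* at 0.74 and −0.999. Among cell cycle genes, *Mki67* was at 0.63 and −0.90, *Top2a* at 0.92 and −1.55, and *Stmn1* at 1.45 and −0.80. In members with exactly 2 activation genes, however, *Mki67* was lower with anti–PD-1 (264 and 157 CPM), so its split did not follow the gate.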

How the results depend on the processing

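With 1 library per group no replicate could be left out. No paired analysis was possible because each group had 1 library. Of 119 named genes past 1.5-fold, 106 kept their direction in every alternative run and 61 stayed past 1.5-fold in all. The single genes named here changed sign, from main log2 ratios of −0.67 for *Il6st*, −0.61 for *Il27ra*, 0.72 for *Tyrobp*, 0.72 for *Fos*, 0.67 for *Tubb5*, 1.23 for *Tyms* and 0.69 for *Satb1*, and the others as given in the report. The cause of each shift listed here was not tested. Single genes were not recomputed where a library kept under 50 members. The gate without excluded genes and the gates without certain members were chosen after seeing the data.

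With cells of 1 activation gene added, the cytotoxic median was 0.18, *Il18r1* −0.016, *Ly6c2* −0.26 and *Satb1* −0.38, and the difference in the share of members was 2.63 points among CD8-gated T cells and 0.151 among kept cells. With 3 or more activation genes *Il6st* was 0.21. Without excluded genes the medians were −0.055 (cytotoxic) and 0.79 (cell cycle), *Ccl3* was 0.21, *Ccl4* 0.015 and *Tyrobp* −0.69, and the kept share differed by 2.11 points. With cells clear of 7 more markers (66 and 40 members), 1919 genes were past 1.5-fold higher and 3215 lower, the medians were −0.43 (cytotoxic) and −0.25 (memory, 0.38 in the main analysis), and the kept share differed by −0.180 points. With Y-linked and no *Xist* UMIs (11 and 199 members), 2797 genes were higher and 3114 lower, the medians were 0.28 (cytotoxic), −0.087 (type I interferon) and 2.20 (cell cycle), and the shares differed by 25.7 and 1.79 points.

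Thinning to 2000 UMIs gave medians of 0.21 (immediate early) and 0.87 (cell cycle), *Il6st* at 0.40 and a kept share difference of 1.05 points. Thinning to 1000 UMIs gave medians of −0.29 (cytotoxic), −0.62 (cytokines) and 0.17 (immediate early), *Fos* at −0.015, *Il27ra* at 0.095, *Tyrobp* at −0.45 and a CD8-gated share difference of 2.15 points. Without cycling members the cell cycle median was 0.017, *Mki67* −0.12, *Top2a* −0.074, *Tubb5* −0.45 and *Tyms* −0.086. Median-ratio scaling gave 1230 genes higher and 1059 lower, against 783 and 1580, and a cytotoxic median of 0.028. With no filter on low genes 2443 were lower. *Il6st* was 0.15 as a mean over cells and 0.24 without the 2 highest members.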
